A study of Mus musculus with 35 samples.

Results

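The Fc gamma receptors bind the constant part of IgG antibodies, and their transcripts were measured here in microglia sorted from 3 brain regions of the mouse. The 5 genes described are the activating receptors Fcgr1, Fcgr3 and Fcgr4, the inhibitory receptor Fcgr2b and the signalling chain Fcer1g, chosen by name as the classical mouse family, and all 5 were among the 21236 genes of the count table. The cells came from 12 adult mice, 6 male and 6 female, close to the end of the fourth month of age, which all carried Tmem119-2A-CreERT2 and Ai14(RCL-tdTomato)-D in heterozygous form and all received tamoxifen. In these mice Cre is driven from the Tmem119 gene, so that the cells collected are those in which Tmem119 was active when tamoxifen was given, and all groups share this history. Microglia positive for tdTomato were compared between the midbrain (n = 12), the striatum (n = 12) and the prefrontal cortex (PFC, n = 11, since the PFC of 1 male was lost), in 35 samples, each from 1 mouse and 1 region.

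An activating Fc gamma receptor signals through the common gamma chain encoded by Fcer1g, whose tyrosine motif (the ITAM) is phosphorylated by Src family kinases once antibody clusters the receptor, and then recruits the kinase Syk. Fcgr2b carries an inhibitory motif (the ITIM) in its own tail and brings in phosphatases such as the one encoded by Inpp5d, which damps the same signal. Macrophages and microglia take up antibody-coated targets through these receptors, and the balance of activating and inhibitory receptors sets how readily a cell responds to antibody.

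Fcgr2b, Fcgr4 and Fcgr3 lie together within 106.3 kb of chromosome 1 (GRCm38, 170958617 to 171064935), and Fcer1g follows 164.6 kb further along the same chromosome. Fcgr2b (ENSMUSG00000026656, 170958617 to 170976547), Fcgr3 (ENSMUSG00000059498, 171051174 to 171064935) and Fcer1g (ENSMUSG00000058715, 171229572 to 171234365) are on the minus strand, and Fcgr4 (ENSMUSG00000059089, 171018920 to 171029761) is on the plus strand. Fcgr1 (ENSMUSG00000015947) lies on the minus strand of chromosome 3, 96282909 to 96293969.

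Fcgr3 and Fcgr2b are close enough in sequence for reads to match both, and no other pair of members is. Over the coding bases that could be aligned, Fcgr3 and Fcgr2b were identical at 491 of 509 (96.5%), and Fcgr3 and Fcgr4 at 293 of 443 (66.1%). Of the 1733 words of 50 bases in Fcgr3 exons, 50 being the length of a read, 166 (9.58%) also occurred in Fcgr2b, and 19.5% did so when up to 2 mismatches were allowed. For Fcgr2b, whose exons hold 5685 such words, the shares were 2.92% and 5.95%, and 6.95% of its words occurred in some other gene. No word of Fcgr1, Fcgr4 or Fcer1g occurred in another gene. How reads that match more than 1 gene were counted is not given in the sources used here, so part of the Fcgr3 and Fcgr2b counts is uncertain. Fcgr2b also overlaps the antisense gene Gm38204 over 155 bases of exon (2.7%). The 180 coding bases where the pair is most alike are shown from Fcgr3-201 (coding bases 263 to 442) and Fcgr2b-201 (coding bases 278 to 457) of GENCODE M21, identical at 179 positions, with the position that differs in capitals.
Fcgr3: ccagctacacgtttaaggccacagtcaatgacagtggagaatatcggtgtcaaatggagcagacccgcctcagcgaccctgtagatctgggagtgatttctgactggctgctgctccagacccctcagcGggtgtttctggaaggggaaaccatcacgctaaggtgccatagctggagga
Fcgr2b: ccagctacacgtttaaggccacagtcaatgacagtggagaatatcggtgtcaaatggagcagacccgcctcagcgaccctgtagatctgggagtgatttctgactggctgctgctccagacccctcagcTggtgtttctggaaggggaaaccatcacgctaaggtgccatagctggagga

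Total counts ran from 37680501 to 54131421 per sample, and a floor of 3 counts stood for 0.0561 to 0.0789 CPM (each count over the total of its sample, scaled with TMM factors). Every member was above this floor in every sample, and the least abundant, Fcgr4, had 293 to 1471 counts. All 13 microglia markers were detected in every sample, with a summed level of 44313 to 50854 CPM in the midbrain, 47783 to 56338 in the striatum and 45886 to 54630 in the PFC. The midbrain sample of mouse 6 stood apart in markers of other cells. Ms4a7, a marker of border macrophages, had 97.9 CPM in it and 0.155 to 4.79 in the other midbrain samples, and Igkc, an antibody light chain, had 352 CPM against 1.07 to 71.4. The column mapped to the striatum of mouse 3 has a name that starts with PFC in the table, while the label of its sample gives striatum.

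Of the 5 members, Fcgr4 differed between regions and the others did not pass the test. Fcgr4 was 1.84 times as high in the midbrain as in the PFC (95% interval 1.52 to 2.21) and 1.56 times as high as in the striatum (1.31 to 1.87). An effect of region was called at an adjusted p under 0.05 for 1 of 5 members, against 8.89% of all genes tested. The adjusted p of region (edgeR quasi-likelihood test, Benjamini-Hochberg over 21236 genes, 35 samples) was 1.7e-05 for Fcgr4, 0.267 for Fcgr3, 0.351 for Fcgr1, 0.571 for Fcgr2b and 0.817 for Fcer1g. In bulk samples, fewer cells with a transcript and less of it per cell cannot be told apart.

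**Figure D1:**
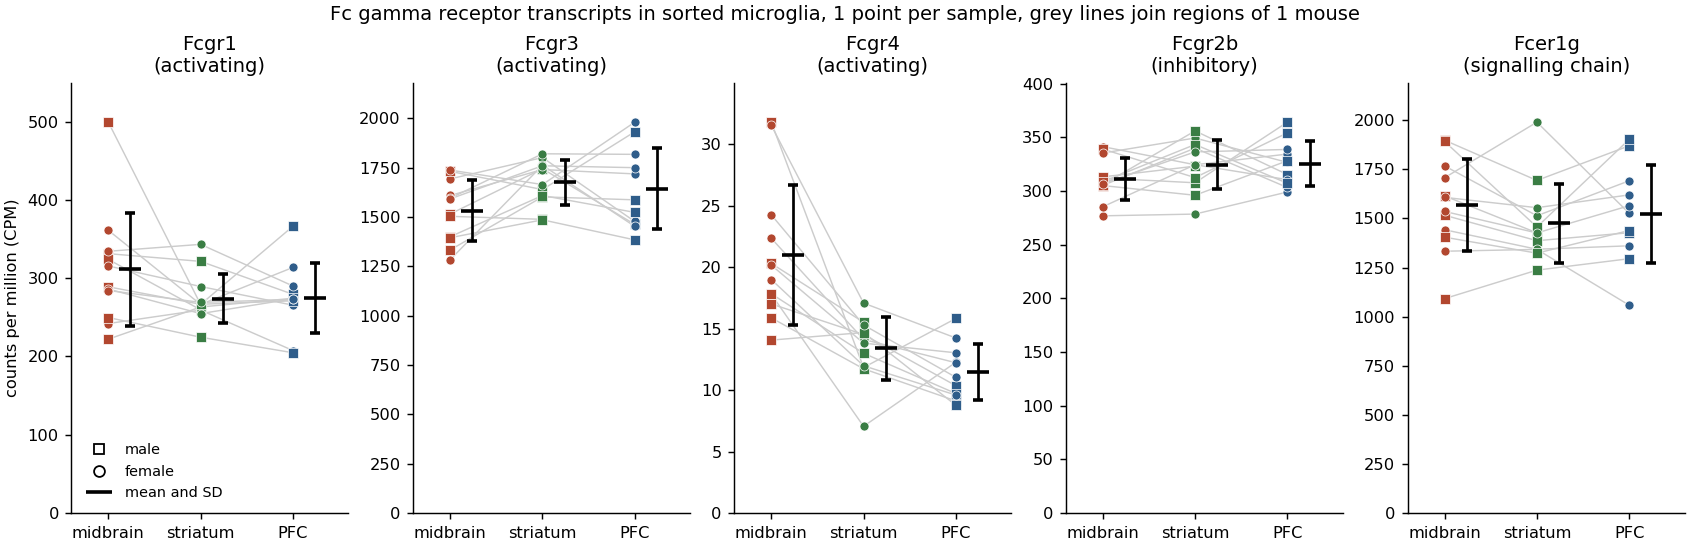
CPM (linear axes from 0) of the 5 genes in each sample, squares for males and circles for females, with grey lines that join the regions of a mouse and black bars for the mean and SD of each region (n = 12, 12 and 11). The PFC samples of Fcgr4 sit at 8.76 to 15.8 CPM and its midbrain samples at 14.1 to 31.8, while the ranges of the other genes overlap widely across the regions.

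Fcgr4, an activating receptor that binds selected IgG subclasses, had a lowest value of 14.1, a median of 19.6 and a highest value of 31.8 CPM in the midbrain (mean 21 ± 5.69, SD, n = 12). In the striatum the lowest was 7.05, the median 13.97 and the highest 17.1 CPM (mean 13.4 ± 2.58, n = 12). In the PFC the lowest was 8.76, the median 11.04 and the highest 15.8 CPM (mean 11.47 ± 2.26, n = 11). The midbrain samples were high as a group: 11 of 12 lay above the highest PFC value and 9 of 12 above the highest striatum value. From the other side, 9 of 11 PFC values but only 6 of 12 striatum values lay below every midbrain value. The largest values, 31.8 and 31.5 CPM, were those of mice 5 and 6.

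Between PFC and midbrain, Fcgr4 fell by 0.88 on the log2 scale (SE 0.13, edgeR adjusted p = 1.4e-05). All 11 mice with both regions had less in the PFC, with a mean difference within mice of -0.85 ± 0.20 (SD, log2 CPM). Fcgr4 was the single member called among 5, where 5.99% of all genes were called, 3.24% as lower and 2.75% as higher in the PFC. Between striatum and midbrain it fell by 0.64 (SE 0.13, edgeR adjusted p = 0.0011) and was lower in the striatum in 11 of 12 mice, mouse 9 being the exception. Here too it was the single member called, against 6.47% of all genes, 2.98% as lower and 3.5% as higher in the striatum.

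The striatum and the PFC did not pass the test for any member, against 3.14% of all genes called, 2.31% as higher and 0.833% as lower in the striatum. By edgeR, 0 of 5 members had an unadjusted p under 0.05 and DESeq2 also called 0. Striatal Fcgr4 exceeded that of the PFC by 0.23 (log2, 95% interval -0.04 to 0.50, edgeR p = 0.087), and in 9 of 11 mice. With mouse in place of sex in the fit, the difference was 0.22 (edgeR p = 0.046), a fold change under 1.2. This comparison changed with the mice included: the difference passed the rule without mouse 2 (0.31, p = 0.017), without mouse 5 (0.32, p = 0.013) and in mice 7 to 12 alone (0.40, p = 0.0019), and was 0.04 in mice 1 to 6 alone (p = 0.86, all by edgeR). The striatum of mouse 2 had the lowest Fcgr4 value of all samples, 7.05 CPM.

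**Figure D2:**
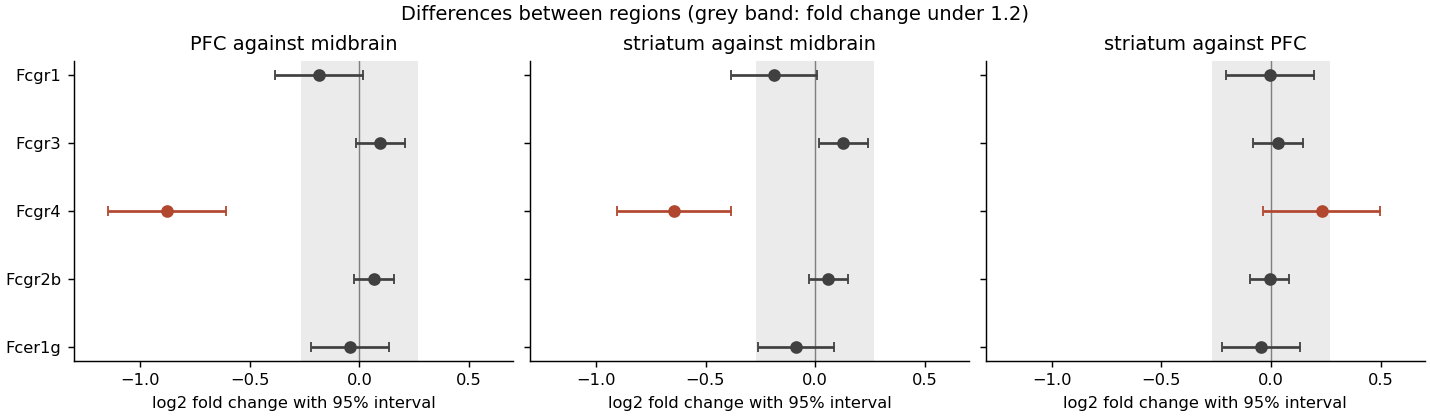
Log2 fold change of each gene between 2 regions with its 95% interval from the edgeR fit of 35 samples, with a grey band for fold changes under 1.2. The intervals of Fcgr4 (red) lie outside the band for PFC against midbrain (-0.88) and striatum against midbrain (-0.64) and cross 0 for striatum against PFC (0.23), and the points of the other 4 genes lie inside the band in all 3 panels.

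The direction of Fcgr4 was the same in males and females. The adjusted p of region was 0.0071 in females alone and 0.074 in males alone (edgeR), so that the call was lost in males, where the log2 differences were -0.86 for PFC and -0.52 for striatum against midbrain. It held in mice 1 to 6 alone (adjusted p = 0.029) and in mice 7 to 12 alone (adjusted p = 0.00025). Without the midbrain sample of mouse 6 the adjusted p of region was 6.7e-05, and without the striatum sample of mouse 3 it was 1.6e-05.

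Markers of other myeloid cells, some of which express Fcgr4, moved between regions in different ways. Of 12 border macrophage markers, 11 were in the table, and their summed level was 75.8 to 225.5 CPM in the midbrain, 98.8 to 183 in the striatum and 86.4 to 130.3 in the PFC, with Stab1 alone at 73.3 to 118 CPM in the midbrain. The defining markers were scarce: Mrc1 had 0.860 to 16.4 CPM in the midbrain, and Cd163 was listed at 0 in the median sample of each region. Ms4a7 and Clec12a were called lower in the PFC than in the midbrain, beside 3.24% of all genes, and 0 of 11 higher. Both were highest in the midbrain sample of mouse 6. In the striatum against the midbrain 1 marker was called higher and 1 lower (3.5% and 2.98% of all genes). In the striatum against the PFC 3 were called higher (2.31%) and 0 lower. Median CPM in the midbrain, striatum and PFC was 2.56, 3.99 and 5.37 for Mrc1 and 85.8, 144 and 103 for Stab1. Of 10 monocyte markers, 9 were in the table, and their summed level was 380 to 1399 CPM in the midbrain, 133 to 1394 in the striatum and 804 to 1641 in the PFC, nearly all from Nr4a1. Ccr2, the defining chemokine receptor of inflammatory monocytes, had 0.334 to 2.36 CPM in the midbrain, 1.53 to 3.29 in the striatum and 0.988 to 6.66 in the PFC. Of 10 neutrophil markers, 3 were in the table and summed to at most 0.962 CPM in the midbrain, 0.884 in the striatum and 42.2 in the PFC, where the highest sample was that of mouse 1. The part of such cells in the Fcgr4 values was not tested.

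Fcgr1, the high-affinity IgG receptor, was measured at 222 to 499 CPM in the midbrain (median 302, mean 312 ± 72.2, SD, n = 12). It ran from 225 to 343 CPM in the striatum (median 266, mean 274 ± 31.4, n = 12) and from 205 to 366 in the PFC (median 274, mean 274 ± 44.4, n = 11). The regions overlapped, and the midbrain sample of mouse 5 was the highest at 499 CPM. Fcgr1 was lower than in the midbrain in 10 of 11 mice for the PFC and in 9 of 12 for the striatum. The log2 differences, -0.18 (95% interval -0.38 to 0.02, edgeR p = 0.074) and -0.19 (-0.38 to 0.01, p = 0.061), did not pass the test. This fit does not pair the regions of a mouse. With mouse in place of sex in the fit, the differences were -0.17 (edgeR p = 0.016) and -0.16 (p = 0.019). The effect of region was still not called there (edgeR adjusted p = 0.11).

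Fcgr3, the low-affinity activating receptor, was the most abundant of the receptors. It ran from 1284 to 1738 CPM in the midbrain (median 1554, mean 1533 ± 154, SD, n = 12), from 1486 to 1821 in the striatum (median 1703, mean 1677 ± 114, n = 12) and from 1384 to 1981 in the PFC (median 1587, mean 1644 ± 206, n = 11). Midbrain values were at the lower end, in that 4 of 12 lay below every striatum value, but most samples overlapped. The striatum was higher by 0.13 (log2, 95% interval 0.02 to 0.24, edgeR p = 0.024, adjusted p = 0.16), in 9 of 12 mice, without an effect of region and with a fold change under 1.2. The PFC was higher by 0.10 (-0.02 to 0.21, p = 0.094), in 8 of 11 mice. With mouse in place of sex in the fit, the differences were 0.13 for the striatum (edgeR p = 0.0051) and 0.09 for the PFC (p = 0.058). The effect of region was not called there either (edgeR adjusted p = 0.090).

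Fcgr2b, the inhibitory receptor, varied least. Its values were 277 to 341 CPM in the midbrain (median 308, mean 311 ± 19.7, SD, n = 12), 278 to 356 in the striatum (median 324, mean 324 ± 22.8, n = 12) and 299 to 364 in the PFC (median 327, mean 326 ± 21.05, n = 11). The coefficient of variation over all 35 samples was 6.75% for Fcgr2b, 10.4% for Fcgr3, 14.8% for Fcer1g, 18.8% for Fcgr1 and 36.5% for Fcgr4. The 95% intervals of its log2 difference from the midbrain, -0.02 to 0.16 for the PFC and -0.03 to 0.15 for the striatum, leave out a fold change of 1.2 in either direction (0.26 on this scale).

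Fcer1g, the signalling chain, had 1092 to 1898 CPM in the midbrain (median 1571, mean 1567 ± 235, SD, n = 12). It had 1237 to 1990.2 CPM in the striatum (median 1426, mean 1474 ± 202, n = 12) and 1058 to 1903 in the PFC (median 1526, mean 1523 ± 248, n = 11). Its values overlapped over almost their whole range, with log2 differences from the midbrain of -0.04 (95% interval -0.22 to 0.14) for the PFC and -0.09 (-0.26 to 0.09) for the striatum. Neither passed the test (edgeR p = 0.64 and 0.31).

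Fcgr1 and Fcer1g varied with mouse number. In the midbrain, Fcer1g had 1607 to 1898 CPM in mice 1 to 6 and 1092 to 1535 in mice 7 to 12, with no overlap. In the striatum the ranges were 1426.5 to 1990.2 and 1237 to 1426.0 CPM, again without overlap, and in the PFC they were 1526 to 1903 and 1058 to 1565. Fcgr1 showed the same order, with 315 to 499 against 222 to 289 CPM in the midbrain, also without overlap. Its ranges did overlap in the striatum (260 to 343 against 225 to 269 CPM) and in the PFC (265 to 366 against 205 to 274). Over all regions, the means of mice 1 to 6 and 7 to 12 were 1690.1 and 1362 CPM for Fcer1g, 319 and 256 for Fcgr1, 1673 and 1564 for Fcgr3, 16.8 and 14.1 for Fcgr4, and 323 and 318 for Fcgr2b. The labels name no batch for this split, which was taken up because earlier results of these data showed it, and it was not tested.

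**Figure D3:**
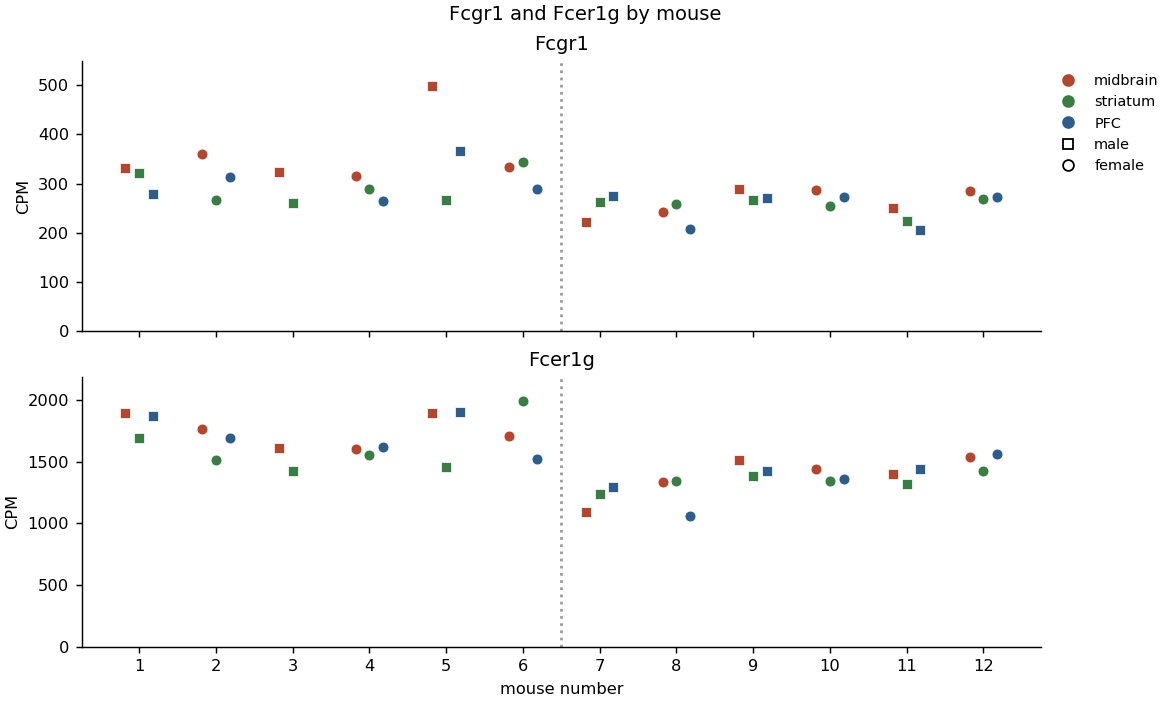
CPM (linear axes from 0) of Fcgr1 and Fcer1g by mouse number, 1 point per sample, coloured by region, with squares for males, circles for females and a dotted line between mice 6 and 7. Fcer1g averages 1690.1 CPM to the left of the line and 1362 to the right, and Fcgr1 319 and 256.

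To compare levels between genes, counts were divided by exon length and scaled to one constant sum per sample over the genes of the table (TPM). On this scale the order was Fcer1g (4516 ± 465.98, SD, n = 35), Fcgr3 (2429 ± 242), Fcgr1 (287 ± 40.7), Fcgr2b (144 ± 11.6) and Fcgr4 (31.8 ± 10.7). Each gene was above the next in 35 of 35 samples with the union of exons as length. Fcer1g stood 1.86 times above Fcgr3, and Fcgr3 8.46 times above Fcgr1 and 76.5 times above Fcgr4. The level of Fcgr2b depends on the exons counted, since its union of exons (5790 bases) holds retained introns and its longest coding transcript has 3544 bases. With the longest coding transcript of each gene as length, Fcgr1 was above Fcgr2b in 31 of 35 samples and below it in 4 (ratio 0.895 to 2.02), so that the order of these genes turned in some samples, while the other neighbours kept their order in 35 of 35.

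The activating to inhibitory ratio, the summed counts per kilobase of Fcgr1, Fcgr3 and Fcgr4 over those of Fcgr2b, was near 19 in each region. It was 19.01 ± 2.18 (SD, n = 12, range 16.1 to 23.6) in the midbrain, 19.4 ± 2.11 (n = 12, 16.1 to 23.8) in the striatum and 18.9 ± 2.10 (n = 11, 15.2 to 22.4) in the PFC. The ranges overlapped almost fully. Within mice, the PFC ratio exceeded the midbrain ratio in 6 of 11 (mean log2 difference -0.01 ± 0.16, SD) and the striatal ratio did so in 5 of 12 (0.03 ± 0.15). With the length of the longest coding transcript in place of the union of exons, the ratio was 14.5 ± 1.65, 15.0 ± 1.64 and 14.6 ± 1.63 in the midbrain, striatum and PFC. As a score over the members, the ratio was given no test.

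**Figure D4:**
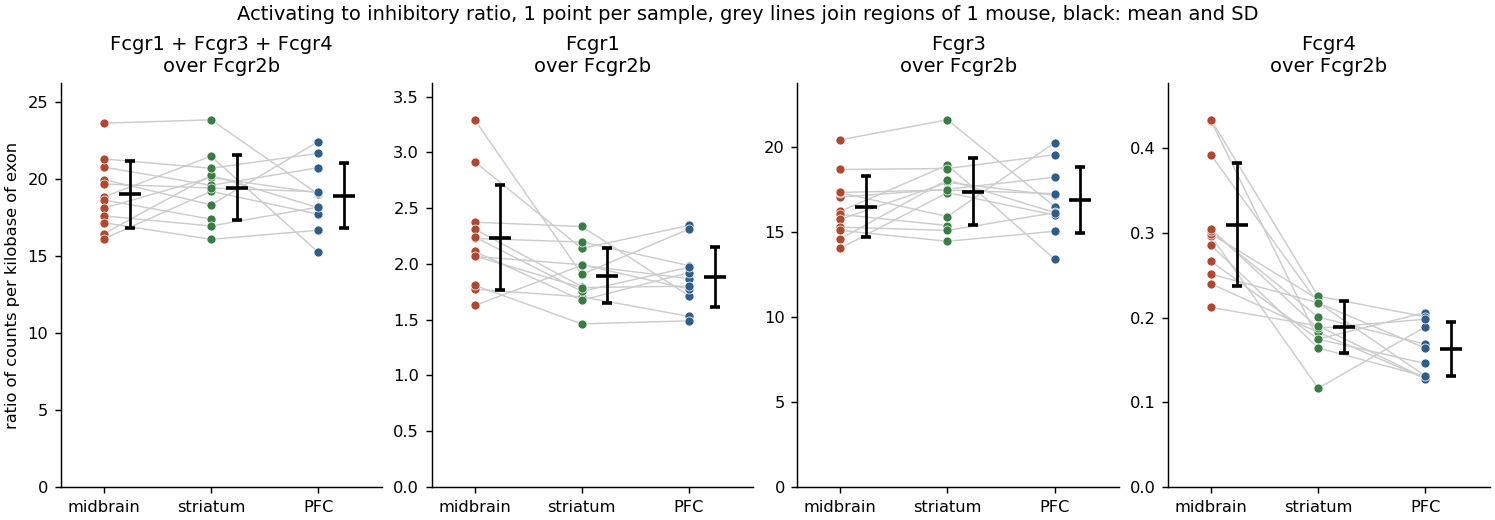
Ratio of counts per kilobase of exon of the activating receptors to Fcgr2b in each sample (linear axes from 0), for the sum and for each receptor alone, with grey lines that join the regions of a mouse and black bars for the mean and SD. The sum stays near 19 in all regions, and Fcgr4 over Fcgr2b goes from 0.310 in the midbrain to 0.189 in the striatum and 0.163 in the PFC.

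Fcgr3 made up most of the sum. It gave 86.7% ± 1.67 of the activating sum per kilobase in the midbrain (SD, n = 12), 89.2% ± 1.09 in the striatum and 89.1% ± 1.23 in the PFC. The share of Fcgr1 was 11.7% ± 1.58, 9.77% ± 0.971 and 9.99% ± 1.21, and that of Fcgr4 was 1.63% ± 0.315, 0.990% ± 0.204 and 0.861% ± 0.140, in the same order. Taken alone over Fcgr2b, Fcgr4 was 0.310 ± 0.0725 in the midbrain, 0.189 ± 0.0308 in the striatum and 0.163 ± 0.0317 in the PFC, lower than in the midbrain in 12 of 12 mice for the striatum and 11 of 11 for the PFC. Fcgr1 over Fcgr2b was 2.24 ± 0.471 in the midbrain, 1.90 ± 0.248 in the striatum and 1.88 ± 0.273 in the PFC, lower in 11 of 12 and 10 of 11 mice. Fcgr3 over Fcgr2b went the other way in 8 of 12 and 7 of 11 mice (16.5 ± 1.80, 17.3 ± 1.97 and 16.9 ± 1.94).

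The activating receptors together stood at 0.574 ± 0.0550 of Fcer1g per kilobase in the midbrain, 0.649 ± 0.0746 in the striatum and 0.621 ± 0.102 in the PFC (SD). Against the midbrain of the same mouse, the striatal quotient was the larger in 11 of 12 and the PFC quotient in 7 of 11. No sample reached 1 in this quotient, the highest being 0.766.

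Sex did not pass the rule for any member. A difference was called at p under 0.05 with a fold change over 1.2, and 0 of 5 members were called by edgeR and 0 by DESeq2, against 4.13% of all genes (1.48% higher and 2.66% lower in females), with 1 member at an unadjusted p under 0.05. That member was Fcgr3, higher in females by 0.12 on the log2 scale (95% interval 0.02 to 0.21, edgeR p = 0.015, adjusted p = 0.42), a fold change of 1.08. Its mean was 1586 ± 159 CPM in females and 1480 ± 142 in males in the midbrain (SD, n = 6 each), 1758 ± 54.5 and 1595 ± 97.9 in the striatum (n = 6 each), and 1699.7 ± 203 (n = 6) and 1578 ± 212 (n = 5) in the PFC. The sexes overlapped in each region. This fit treats the regions of a mouse as independent samples, and with 1 mean per mouse the difference in Fcgr3 was 0.12 with p = 0.067 (two-sided exact permutation test, 6 against 6 mice). The other members differed between the sexes by -0.03 to 0.11 (log2) in the edgeR fit. Over mouse means they differed by -0.02 to 0.07, with exact permutation p of 0.59 to 0.99. Mouse means were not adjusted for region, and that of male mouse 3 lacks a PFC sample.

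Within single regions 0 of 5 members were called between the sexes (edgeR, unadjusted p of at least 0.086), beside 4.84% of all genes in the midbrain, 2.28% in the striatum and 5.29% in the PFC. An interaction of region and sex was called for 0 of 5 members, and none had an unadjusted p under 0.05 (edgeR, p = 0.48 to 0.93). Of all genes, 0 were called at an adjusted p under 0.05 and 632 (2.98%) had an unadjusted p under 0.05.

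Genes that act with the receptors were followed in 7 lists of kinases, adaptors, inhibitory enzymes, actin regulators, other immunoglobulin receptors, partners of Fcer1g and the interferon gamma axis, with 102 genes in the table. Between PFC and midbrain 11 were called (10.8%), 3 higher and 8 lower in the PFC, beside 5.99% of all genes. Between striatum and midbrain 16 were called (15.7%), 4 higher and 12 lower, beside 6.47%. Between striatum and PFC 4 were called (3.92%), beside 3.14%. Without the striatum sample of mouse 3 the 3 counts were 9, 13 and 3. Without the midbrain sample of mouse 6 they were 10, 13 and 4. Genes named were those called with a mean of at least 8 CPM, at most the top 3 of each list and pair.

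Among 12 signalling kinases, Fgr was the one called in each pair. Fgr, a Src family kinase of myeloid cells, had 15.6 ± 5.15 CPM in the midbrain (SD, n = 12, range 8.87 to 28.3), 5.64 ± 2.74 in the striatum (n = 12, 2.71 to 10.7) and 3.36 ± 1.73 in the PFC (n = 11, 0.408 to 5.29). No PFC value reached the midbrain range, and Fgr was lower in 11 of 11 mice in the PFC (log2 -2.21, edgeR adjusted p = 2.2e-06) and in 12 of 12 in the striatum (-1.46, adjusted p = 0.00078). Syk, the kinase that docks on the phosphorylated gamma chain, had 112 ± 18.9, 121 ± 12.6 and 117 ± 20.03 CPM in the midbrain, striatum and PFC, with no effect of region (adjusted p = 0.71). The median log2 difference of the list was -0.06 between PFC and midbrain and -0.05 between striatum and midbrain, against 0.01 over all genes in each case.

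Of 19 adaptors and enzymes, 2 were called in the PFC and 4 in the striatum against the midbrain, in both directions. Lat2, a membrane adaptor phosphorylated downstream of ITAM receptors, had 306 ± 33.9 CPM in the midbrain, 210 ± 30.1 in the striatum and 169 ± 25.5 in the PFC (SD). It was lower than in the midbrain in every mouse with both regions, by 0.86 in the PFC (edgeR adjusted p = 5.4e-10) and by 0.54 in the striatum (adjusted p = 9.7e-06), and striatal Lat2 exceeded that of the PFC by 0.31 (adjusted p = 0.044). Plcg1, a phospholipase that generates second messengers, went the other way, with 28.2 ± 7.28, 42.9 ± 7.14 and 37.7 ± 11.8 CPM in the midbrain, striatum and PFC. Bcl10, an adaptor on the path to NF-kB, was lower in striatum by 0.37 relative to midbrain (edgeR adjusted p = 0.0049) and by 0.27 relative to PFC (p = 0.0038, not called without the striatum sample of mouse 3, where the difference was -0.23, nor with a mouse block, where it was -0.25). The remaining call, Pik3r5, is outside the rule and is named after its values were seen; it was higher in the striatum by 0.26 and was not called without the midbrain sample of mouse 6.

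None of 12 inhibitory genes was called in any pair by edgeR or DESeq2, while 4, 4 and 1 had an unadjusted p under 0.05 in PFC against midbrain, striatum against midbrain and striatum against PFC. Inpp5d, the lipid phosphatase recruited by the Fcgr2b tail, had 646 ± 115, 754 ± 89.5 and 700.4 ± 130.2 CPM in the midbrain, striatum and PFC, and its region term had an adjusted p of 0.31. Ptpn6, a tyrosine phosphatase that binds inhibitory motifs, had 649.9 ± 82.6, 608 ± 58.8 and 567.7 ± 42.6 CPM, with an adjusted p of 0.057. Dok3, outside the rule and named after its values were seen, did have an effect of region (edgeR adjusted p = 0.015). It was lower than in the midbrain by 0.25 in the PFC, in 10 of 11 mice (edgeR adjusted p = 0.010), just under the fold minimum. In the striatum it was lower by 0.19, in 10 of 12 mice.

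Of 26 actin genes, 1 was called in PFC against midbrain, 3 in striatum against midbrain and 0 in striatum against PFC, where 2 had an unadjusted p under 0.05 by edgeR and DESeq2 called 0. Myo1g, a myosin of blood cells, was lower than in the midbrain by 0.40 in the PFC and by 0.36 in the striatum, but was not called without the striatum sample of mouse 3 (adjusted p of region 0.058). Actr3, a subunit of the actin-branching complex, was lower in the striatum by 0.27 in 12 of 12 mice (edgeR adjusted p = 0.00022). Arf6, a small GTPase of membrane traffic, was lower there by 0.32 in 11 of 12 mice (edgeR adjusted p = 0.011).

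Among other immunoglobulin receptors, the calls went opposite to Fcgr4. Of 8 in the table, Fcrls and Fcrl1 were called in both PFC and striatum, each time above the midbrain, and none was called lower. Fcrls, an Fc receptor-like gene used as a microglia marker, had 2864 ± 277 CPM in the midbrain, 3708 ± 451 in the striatum and 4454 ± 349.9 in the PFC, higher than in the midbrain by 0.63 and 0.37 in the PFC and striatum and in every mouse (edgeR adjusted p = 5.4e-10 and 3.1e-05). Fcrl1, another Fc receptor-like gene, was higher by 0.52 in the PFC and 0.36 in the striatum, also in every mouse. Fcgrt, the neonatal Fc receptor that recycles IgG, had 167 ± 10.3, 162 ± 12.5 and 175 ± 13.2 CPM in the midbrain, striatum and PFC, with no call. Between striatum and PFC none of the 8 was called by edgeR or DESeq2, and 3 had an unadjusted p under 0.05. Fcrls was lower in the striatum there in 11 of 11 mice (log2 -0.26, edgeR adjusted p = 0.024), just under the fold minimum, and was called with a mouse block (-0.29, edgeR p = 1.9e-08) and without the striatum sample of mouse 3 (-0.28).

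Of 12 partners of Fcer1g and related ITAM adaptors in the table, 3 were called lower than in midbrain for each of PFC and striatum. Pirb, an inhibitory receptor related to the activating partners of Fcer1g, had 20.05 ± 4.79, 14.5 ± 1.89 and 12.4 ± 2.78 CPM in the midbrain, striatum and PFC. It was lower by 0.70 in the PFC (9 of 11 mice, edgeR adjusted p = 0.00033) and by 0.47 in the striatum (10 of 12, adjusted p = 0.016). The other calls, Clec4n and Pilrb2, outside the rule and named after their values were seen, had means of 0.303 and 0.212 CPM over all samples and were not called without the midbrain sample of mouse 6, which held 7.54 CPM of Clec4n. Without that sample Clec4a1, a C-type lectin receptor also named after its values were seen, was called higher in both PFC (0.62, edgeR p = 7.9e-05) and striatum (0.29), so that calls of this list then went in both directions. For PFC against midbrain DESeq2 called 5 of the list, among them Clec4a1 (0.49) and Clec4a3 (0.30) as higher, and the mouse block in edgeR called Clec4a3 higher (0.33, p = 3.5e-06) and did not call Clec4n. Tyrobp, the main ITAM adaptor of microglia beside Fcer1g, had 1969 ± 383, 1891 ± 231 and 1877 ± 409 CPM, with no effect of region (adjusted p = 0.91). Between striatum and PFC edgeR called none of the 12, DESeq2 called 1, and 1 had an unadjusted p under 0.05.

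**Figure D5:**
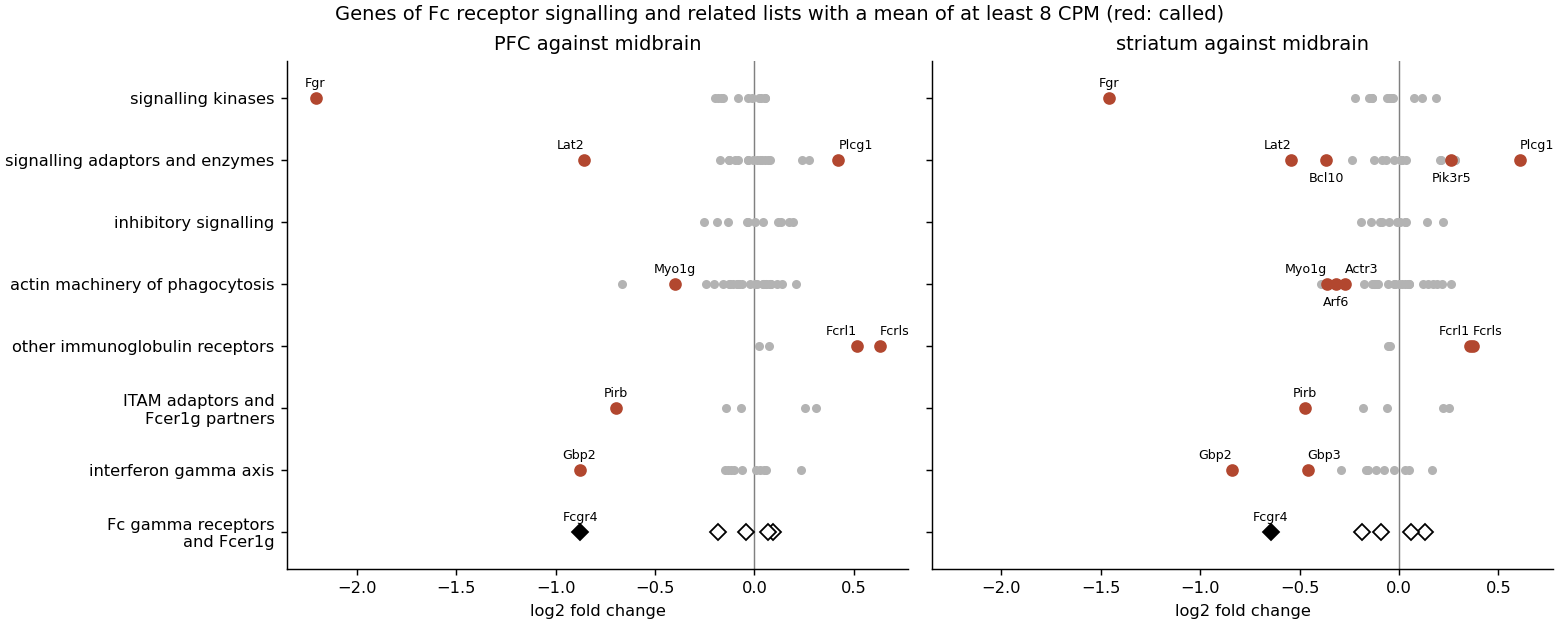
Log2 fold change of each gene with a mean of at least 8 CPM in the 7 lists (1 gene left out), for PFC and for striatum against midbrain, with called genes in red and the 5 members below as diamonds (Fcgr4 filled). Fgr at -2.21 and -1.46 lies farthest to the left, Lat2, Gbp2, Pirb and Fcgr4 lie left of 0 in both panels, and Plcg1, Fcrls and Fcrl1 lie right of it.

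In the interferon gamma axis, whose cytokine induces Fcgr1 and Fcgr4 in macrophages, 2 of 13 genes were called lower for PFC and 3 for striatum, both against midbrain. Gbp2, an interferon-induced GTPase, had 14.8 ± 7.42 CPM in the midbrain, 8.24 ± 2.82 in the striatum and 7.999 ± 2.87 in the PFC, lower in 11 of 11 mice in the PFC (log2 -0.88, edgeR adjusted p = 0.011) and in 12 of 12 in the striatum (-0.84, adjusted p = 0.013). Gbp3, a related GTPase, was lower in striatum by 0.46 relative to midbrain and by 0.33 relative to PFC, and neither was called without the midbrain sample of mouse 6 or without the striatum sample of mouse 3.

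The upstream sequence of Fcgr4, the member that differed between regions, is shown. It holds a motif of the myeloid factor PU.1 (Spi1), which acts on many genes of macrophages. It is the 250 bases before the RefSeq start (GRCm38.p6), chr1:171018676-171018925 on the plus strand, whose last bases fall inside the GENCODE gene. Capitals mark a match to AGAGGAAGT, a PU.1-type motif, on the other strand, 15 bases from the start.
Fcgr4: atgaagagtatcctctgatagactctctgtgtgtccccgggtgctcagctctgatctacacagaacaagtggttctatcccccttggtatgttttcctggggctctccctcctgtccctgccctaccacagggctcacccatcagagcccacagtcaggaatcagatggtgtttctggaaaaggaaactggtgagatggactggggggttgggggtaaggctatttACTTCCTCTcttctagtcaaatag
Searched on both strands, AGAGGAAGT occurred in 0.798% of 32851 such windows, and the shorter GAGGAA, which AGAGGAAGT contains, in 23.3%. Of the members, Fcgr4 alone held AGAGGAAGT, while GAGGAA was present for Fcgr4, Fcgr3 and Fcgr1. The other motif searched, TTCNNNGAA (N for any base), occurred in 7.02% of windows. Among the members it was found for Fcgr1 alone, 100 bases from the start, and not for Fcgr4. A match is a description of the letters in these windows. Spi1, named here after its values were seen, had 505 ± 36.2, 523 ± 47.3 and 522 ± 67.3 CPM (SD) in the midbrain, striatum and PFC. Its region term had an adjusted p of 0.83 (edgeR). Whether the motif bears on the level of Fcgr4 was not tested.

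The genes whose log2 CPM followed each member most closely over the 35 samples, among 8622 with a mean of at least 8 CPM, differed from member to member. For Fcgr4 they were Ctsh (a lysosomal protease, r = 0.85), Hacd4 (a fatty acid elongation enzyme, 0.83) and Tmem176a (a membrane protein of myeloid cells, 0.83). For Fcgr1 they were Alox5ap (needed for leukotriene synthesis), Stard3nl and Gm19719, each at r = 0.92. For Fcgr3 they were Ssna1 (0.80), Emc4 (0.77) and Gpx4 (0.75), and for Fcgr2b Ebi3 (0.63), Khk (0.60) and Gm16712 (0.57). For Fcer1g they were Naa38 (0.95), Cst3 (the protease inhibitor cystatin C, 0.95) and Hint1 (0.94), whose exons cover 890, 1266 and 872 bases beside 874 for Fcer1g. Between members, r was 0.80 for Fcgr1 and Fcer1g, 0.52 for Fcgr1 and Fcgr4, 0.44 for Fcgr1 and Fcgr3, 0.24 for Fcgr3 and Fcgr2b, and -0.03 for Fcgr3 and Fcgr4. These values describe samples that share mice, regions and library preparation, and the points differ in depth as given above.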

How the data were processed

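Samples were grouped by the region in their labels, with the mouse number and sex from the same labels. The authors deposited raw counts per Ensembl gene: per the paper, reads were checked with FastQC, trimmed with Trimmomatic, and aligned to GRCm38 with HISAT2, and features under a CPM minimum in every region and sex were removed. No normalization was applied. The counting tool, strand setting and treatment of multi-mapping reads are not given in the sources used here.

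Symbols, positions and exon lengths came from GENCODE M21, and promoters from RefSeq. Counts were tested with edgeR 4.0.16 (TMM, robust quasi-likelihood F-test, region and sex, 35 samples, R 4.3.3), two-sided. A pair of regions was called where region had an adjusted p under 0.05 and the pair an unadjusted p under 0.05 and a change of more than 1.2-fold. Log2 CPM used a prior count of 2. Alternatives were DESeq2 1.42.0, its size factors, filterByExpr, a mouse block, single sexes, single groups of mice and left-out samples. The same rule was applied to simulated data for PFC against midbrain over 21236 genes. It called 89 of 100 genes changed 1.5-fold and 98 of 100 changed 2-fold, with 11 false calls. The simulated samples were independent, without the correlation between samples of a mouse. Tables and plots used Python.

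The number in a label marks the mouse, so equal numbers pair the samples. Deviations from group means correlated at 0.22 on average between samples of a mouse (34 pairs, 12297 genes) and at -0.04 between mice (170 pairs). No pair of samples of a region agreed within counting noise. Intervals and floors cover counting error or the spread of these samples alone. One called list gene is counted but not reported here. The members, lists and tests were chosen with earlier results of these data known. Named genes were the 5 members, the called genes of each list with a mean of at least 8 CPM (at most 3 per pair, by fold change), and Syk, Inpp5d, Ptpn6, Tyrobp and Fcgrt. The immunoglobulin, dendritic, T and NK cell, astrocyte, oligodendrocyte, neuron and endothelial marker sums are given in the closing section.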

Additional observations from a re-analysis of the deposited data

Results flagged for a closer look

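Within each region and sex, 36 groups of 5 or 6 samples were examined for a single sample far from the others, by its gap to the nearest sample over the range of the group (Dixon's test), and 6 were flagged. Chance alone flags about 1 in 20 groups where groups are independent. These groups share samples and mice, so the 6 flags cannot be set against that rate. Fcgr4 in the male midbrain was 31.8 CPM in mouse 5 and 14.1 to 20.3 in the others, and in the male PFC 15.8 CPM in mouse 5 and 8.76 to 10.4 in the others. Fcgr2b in the male midbrain was 339 CPM in mouse 5 against 305 to 313. Fcgr2b in the female striatum was 278 CPM in mouse 2 against 324 to 349, in the sample that also had the lowest Fcgr4. Fcgr3 in the female midbrain was 1284 CPM in mouse 8 against 1592 to 1738, and Fcer1g in the female striatum was 1990.2 CPM in mouse 6 against 1342 to 1555.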

How the results depend on the processing

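The higher Fcgr4 level in the midbrain kept its direction in all 23 alternatives for each pair, with log2 differences of -0.91 to -0.81 for PFC and -0.82 to -0.46 for striatum. The effect of region was called in 22 of 23 (adjusted p up to 0.074). In males alone it was not, so that 0 members were called for region, PFC against midbrain and striatum against midbrain. Between striatum and PFC, 1 member (Fcgr4) was called in mice 7 to 12 alone, and 0 to 1 with a mouse left out (1 without mouse 2 or mouse 5). With the replicate block (mouse in place of sex), 1 member was called in each pair with the midbrain (-0.84 and -0.62), with no call of a member changed. The 11, 16 and 4 list genes became 11, 18 and 5 with the block. They became 9, 13 and 3 without the striatum sample of mouse 3, and 10, 13 and 4 without the midbrain sample of mouse 6. The block added Clec4a3 (PFC against midbrain), Vav1, Dnm2 and Irf1 (striatum against midbrain), and Fcrls and Irf1 (-0.54, striatum against PFC), and dropped Clec4n and, between striatum and PFC, Bcl10. No alternative called a member between the sexes.

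The ratio moved from -0.01 to -0.30 without Fcgr3 and to -0.37 as a mean of log2 values (PFC against midbrain), and from 0.03 to -0.27 and -0.28 (striatum against midbrain). The difference of region means, without the pairing of mice, moved neither by more than the SD within mice.

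Uncalled differences near 0 changed sign as follows, and the cause was not tested. For sex, Fcer1g (0.00052) was -0.0055 with DESeq2 and with its size factors, -0.0041 with filterByExpr, -1.1e-05 without the striatum of mouse 3, -0.0078 without the midbrain of mouse 6, -0.050 in mice 1 to 6 and -0.0046 with that split as a covariate. Fcgr4 was -0.038 in mice 1 to 6 and Fcgr1 0.048 in mice 7 to 12. Between striatum and PFC, Fcgr1 was 0.010 with the block, 0.0066 without the striatum of mouse 3, 0.033 in mice 7 to 12 and 0.060 in females, Fcgr2b 0.070 in mice 7 to 12 and 0.038 in females, Fcgr3 -0.021 in mice 1 to 6 and Fcer1g 0.065 in females. Fcgr2b between striatum and midbrain was -0.019 in mice 1 to 6, and Fcer1g between PFC and midbrain 0.013 in males. With a mouse left out, striatum against PFC ran from -0.035 to 0.052 for Fcgr1 and -0.027 to 0.019 for Fcgr2b, and sex from -0.080 to 0.087 for Fcgr1, -0.049 to 0.0064 for Fcgr2b and -0.060 to 0.070 for Fcer1g.

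Limits are the Fcgr3 and Fcgr2b counts, since these genes share sequence, the 1 label that disagrees with its column, and sorted bulk RNA, in which protein on the cell surface was not measured.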

Other observations

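Antibody genes were followed with B cell markers, 9 of 12 being in the table. Their summed level was 676 to 1094 CPM in the midbrain, 699 to 869 in the striatum and 585 to 839 in the PFC, most of it from Ighm (608 to 792, 632 to 793 and 527 to 780.5 CPM), the heavy chain of IgM, which is not a ligand of these receptors. Ighg2b, the one IgG heavy chain among them, had medians of 0.165, 0.388 and 0.239 CPM in the midbrain, striatum and PFC. In each of PFC and striatum against midbrain, 3 of the 9 were called lower, beside 3.24% and 2.98% of all genes. Igkc had a median of 2.68 CPM in the midbrain, 1.26 in the striatum and 1.38 in the PFC, and reached 352 CPM in the midbrain of mouse 6 and 71.4 in that of mouse 3. Jchain, the joining chain of secreted antibody, reached 42.1 CPM in the former and was at most 0.105 CPM in any striatum or PFC sample. Fcgr4 in these 2 midbrain samples was 31.5 and 20.3 CPM, and the link was not tested.

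Summed markers of further cell types ran as follows in the midbrain, striatum and PFC. Dendritic cell markers (7) were at 5.12 to 20.9, 3.92 to 8.85 and 4.79 to 18.6 CPM, and T and NK cell markers (5 of 10 in the table) at 0.328 to 7.52, 0.803 to 2.52 and 0.241 to 1.84 CPM. Astrocyte markers (8) were at 207 to 261, 261 to 429 and 260.0 to 495 CPM. Of these, 4 were called higher in each of PFC and striatum than in the midbrain, beside 2.75% and 3.5% of all genes. Of the 13 microglia markers, 2 were called higher in the PFC and 4 in the striatum than in the midbrain, beside the same shares. Oligodendrocyte markers (9) were at 306 to 513, 300 to 851 and 232 to 531 CPM, neuron markers (9) at 1.58 to 6.41, 4.996 to 12.2 and 9.11 to 23.3 CPM, and endothelial markers (8) at 26.5 to 73.6, 32.1 to 99.5 and 25.4 to 53.6 CPM. Of the neuron markers, 3 were called higher in each of PFC and striatum than in the midbrain, beside 2.75% and 3.5% of all genes. In the striatum 1 was called lower than in the midbrain (2.98% of all genes) and 3 lower than in the PFC (0.833%). In PFC against midbrain, 1 oligodendrocyte and 1 T and NK cell marker were called lower (3.24%). In striatum against PFC, 1 oligodendrocyte marker was called higher (2.31%). The part of these further cell types in the values of the members was not tested.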
